A study of Mus musculus with 24 samples.

Results

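The liver makes most of the proteins that circulate for blood clotting and for complement, and 38 genes of these 2 systems were followed here in the livers of mice that kept or lacked p110α in hepatocytes. The members are 21 genes of coagulation and fibrinolysis and 17 genes of complement, out of 21365 genes tested. They were chosen by name from these pathways, and each gene was read from the probe that carried its symbol in the array files and had the highest mean log2 signal over the 24 arrays. All 38 had a probe that was well above background on every array, and 13 of them had more than 1 probe.

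The groups were LWT_Fed, LWT_Fasted, LKO_Fed and LKO_Fasted, with 6 male mice of 12 weeks in each and 1 array per mouse. All mice carried floxed Pik3ca alleles on a C57BL/6J background, so the floxed allele itself does not separate the genotypes. LKO mice also carried Cre under the albumin promoter, used to delete the gene in hepatocytes, and LWT mice were littermates without Cre. No group carried Cre without the deletion, so effects of Cre and of the deletion cannot be told apart here. Fasted mice were without food for 24 h, fed mice ate ad libitum, and every mouse was killed at a single hour of the dark phase. The product of Pik3ca, p110α, is a catalytic subunit of the phosphoinositide 3-kinase that acts downstream of the insulin receptor.

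Coagulation is a cascade of serine protease zymogens. In the contact and intrinsic arm, factor XII, plasma prekallikrein and factor XI act in turn upon factor IX, in the extrinsic arm factor VII acts with tissue factor, and both arms reach factor X, prothrombin and fibrinogen. Antithrombin, heparin cofactor II and the protein C system hold the cascade in check, and plasmin, made from plasminogen, dissolves the clot. Complement is a second cascade, started by C1 on antibody, by mannose-binding lectins with their MASP proteases on sugars, or by the alternative pathway. All of these routes form convertases that cleave C3, and C5 to C9 then assemble into the membrane attack complex. Hepatocytes are the main source of the plasma proteins described here.

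The probe used for Pik3ca itself, at mm9 chr3:32364747-32364806, did not pass as lower in the arrays labelled LKO in either state. Its normalised log2 signal had a median of 11.88 in LWT_Fed (11.71 to 12.25), 12.32 in LWT_Fasted (12.05 to 12.42), 12.49 in LKO_Fed (12.30 to 13.02) and 12.27 in LKO_Fasted (12.03 to 12.50). It was higher in LKO_Fed than in LWT_Fed by 0.58 (log2, adjusted p = 0.00147), and the fasted genotype difference was -0.02 (adjusted p = 0.93). Whether this probe lies in the deleted exons was not examined, so it does not check the labels, and LKO and LWT below name the arrays labelled so. No spot was saturated, and 54.7% to 63.0% of the spots of an array exceeded background well. On the second principal component LKO_Fasted replicates 1 and 2 stood apart from the other 4 arrays of their group. LKO_Fasted replicate 4 held the highest value of its group for 27 of the 38 members and had an array weight of 0.355, and LWT_Fed replicate 3 had the lowest weight, 0.32.

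Fasting of LWT mice moved the members a little and in both directions. Among the 21 coagulation genes 4 were higher and 3 lower at an adjusted p of at most 0.05, against 19.9% of all genes higher and 21.7% lower. Among the 17 complement genes 2 were higher and 4 lower. No member passed with a change over 1.5-fold, a rule that 10.04% of all genes met. The median log2 fold change was 0.02 for coagulation and -0.02 for complement, beside -0.01 for all genes, and with 1 array left out these were -0.01 to 0.03 and -0.06 to -0.01. The complement count of 6 fell to 3 without LWT_Fasted replicate 6, without LWT_Fasted replicate 3, or with Feature Extraction's processed signal scaled to each array's 75th percentile in place of quantile normalization, an alternative called the scaled processed signal below. With that alternative both list medians were 0.05.

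Fasting of LKO mice lowered 21 of the 38 members and raised 3. Of the 21 coagulation genes 11 were lower and 2 higher, and of the 17 complement genes 10 were lower and 1 higher, against 21.9% of all genes lower and 19.7% higher. In percent, 52.4% of the coagulation genes and 58.8% of the complement genes fell. A change over 1.5-fold was reached by 6 coagulation genes (F11, Pros1, Cpb2, Serpind1, F7 and Serpinf2) and by 2 complement genes (Masp1 and Mbl2), against 12.8% of all genes. The list medians were -0.15 and -0.21, beside -0.02 for all genes. Without LKO_Fasted replicates 1 and 2, a setting chosen after seeing the data, 11 coagulation and 9 complement genes passed.

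Between genotypes 8 members were higher and 2 lower in fed LKO mice, and 1 was higher and 12 lower in fasted LKO mice. F7 and, with 1 of its 2 probes, Plg were the members that passed as higher in the fed and lower in the fasted state, whereas C8g and C4bp passed as lower in both. In fed mice 5 coagulation genes (F5, F7, F10, Plg and Serpinf2) were higher in LKO and none lower, while 3 complement genes (C2, C8a and Hc) were higher and 2 (C8g and C4bp) lower, against 8.80% of all genes higher and 7.60% lower. None of these differences exceeded 1.5-fold, a rule met by 3.84% of all genes. In fasted mice 8 coagulation genes and 4 complement genes were lower in LKO and Pros1 alone was higher, against 10.6% of all genes lower and 9.99% higher. A difference over 1.5-fold was present for F11, Pros1, Klkb1, Serpind1 and Masp1, against 4.06% of all genes. The list medians for coagulation and complement were 0.10 and 0.06 in fed mice and -0.07 and -0.08 in fasted mice, beside -0.01 and 0.00 for all genes. These medians are small and rested in part on single arrays. The complement median in fed mice was 0.12 without LKO_Fed replicate 4 or LWT_Fed replicate 4 and 0.10 without LKO_Fed replicate 1. In fasted mice the coagulation median was -0.04 without LKO_Fasted replicate 1 or 5, and the complement median was -0.13 without LKO_Fasted replicate 3 and -0.05 without LWT_Fasted replicate 5. With the scaled processed signal the coagulation medians were 0.17 fed and -0.12 fasted, and the complement median in fed mice was 0.10. Both genotype comparisons share arrays with the fasting comparisons and are not independent of them.

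The fed genotype counts rested on few arrays. The coagulation count of 5 fell to 1 without LWT_Fed replicate 5, to 2 without LWT_Fed replicate 4 or LKO_Fed replicate 1, and to 3 without LKO_Fed replicate 2 or 3. It was 1 without array weights or with no filter on low probes, and 8 with the scaled processed signal. The complement count of 5 fell to 3 without LWT_Fed replicate 5.

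The interaction subtracts the fasting change of LWT from that of LKO and so tests whether the genotypes differ in their response. It was negative at the threshold for 9 coagulation genes and 4 complement genes and positive for none, against 3.87% of all genes negative and 4.12% positive. Its list medians were -0.18 and -0.20, beside 0.00 for all genes, and that of complement was -0.12 without LKO_Fed replicate 1. It exceeded 1.5-fold for F11, Plg, F7, Masp1 and C8a, against 3.09% of all genes. As the mean of all their probes Plg and Masp1 gave -0.43 and -0.41, under 1.5-fold. The weakest alternative other than leaving out 1 array gave -0.46 for F7 and -0.53 for C8a, also under 1.5-fold. The complement count of 4 fell to 2 without LWT_Fed replicate 5, C2 and Mbl2 being the genes lost, and the coagulation count stayed between 6 and 10 when any 1 array was left out. With no filter on low probes the counts were 5 and 2, and without array weights that of complement was 2.

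**Figure D1:**
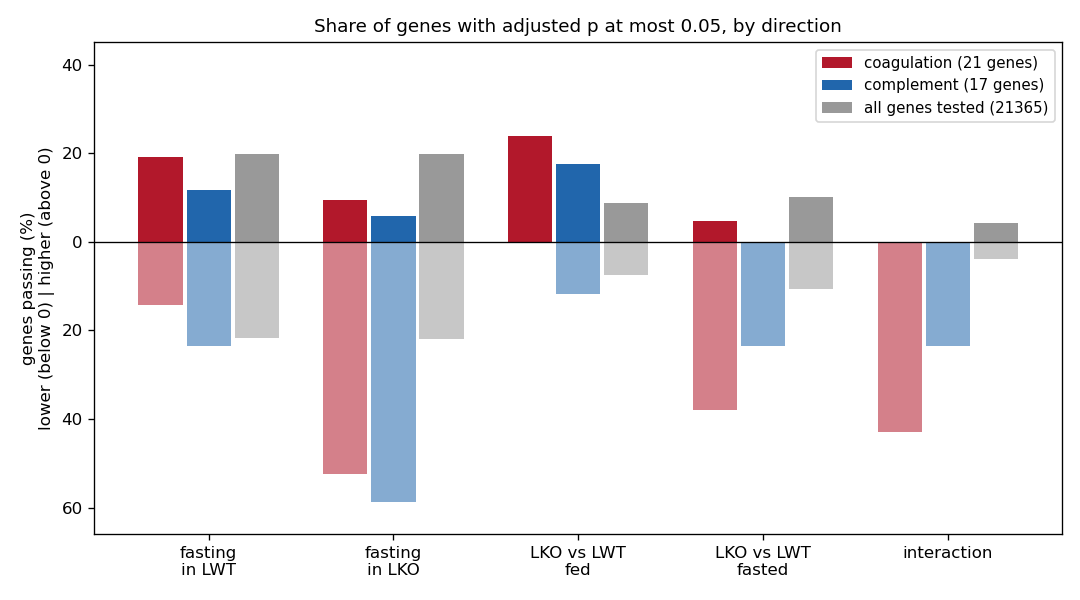
Share of genes in percent with an adjusted p of at most 0.05, drawn above 0 for higher and below 0 for lower, in the 5 comparisons for the 21 coagulation genes, the 17 complement genes and all 21365 genes tested. In the LKO fasting comparison 52.4% of coagulation and 58.8% of complement genes were lower, against 21.9% of all genes, and no member passed as positive in the interaction.

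**Figure D2:**
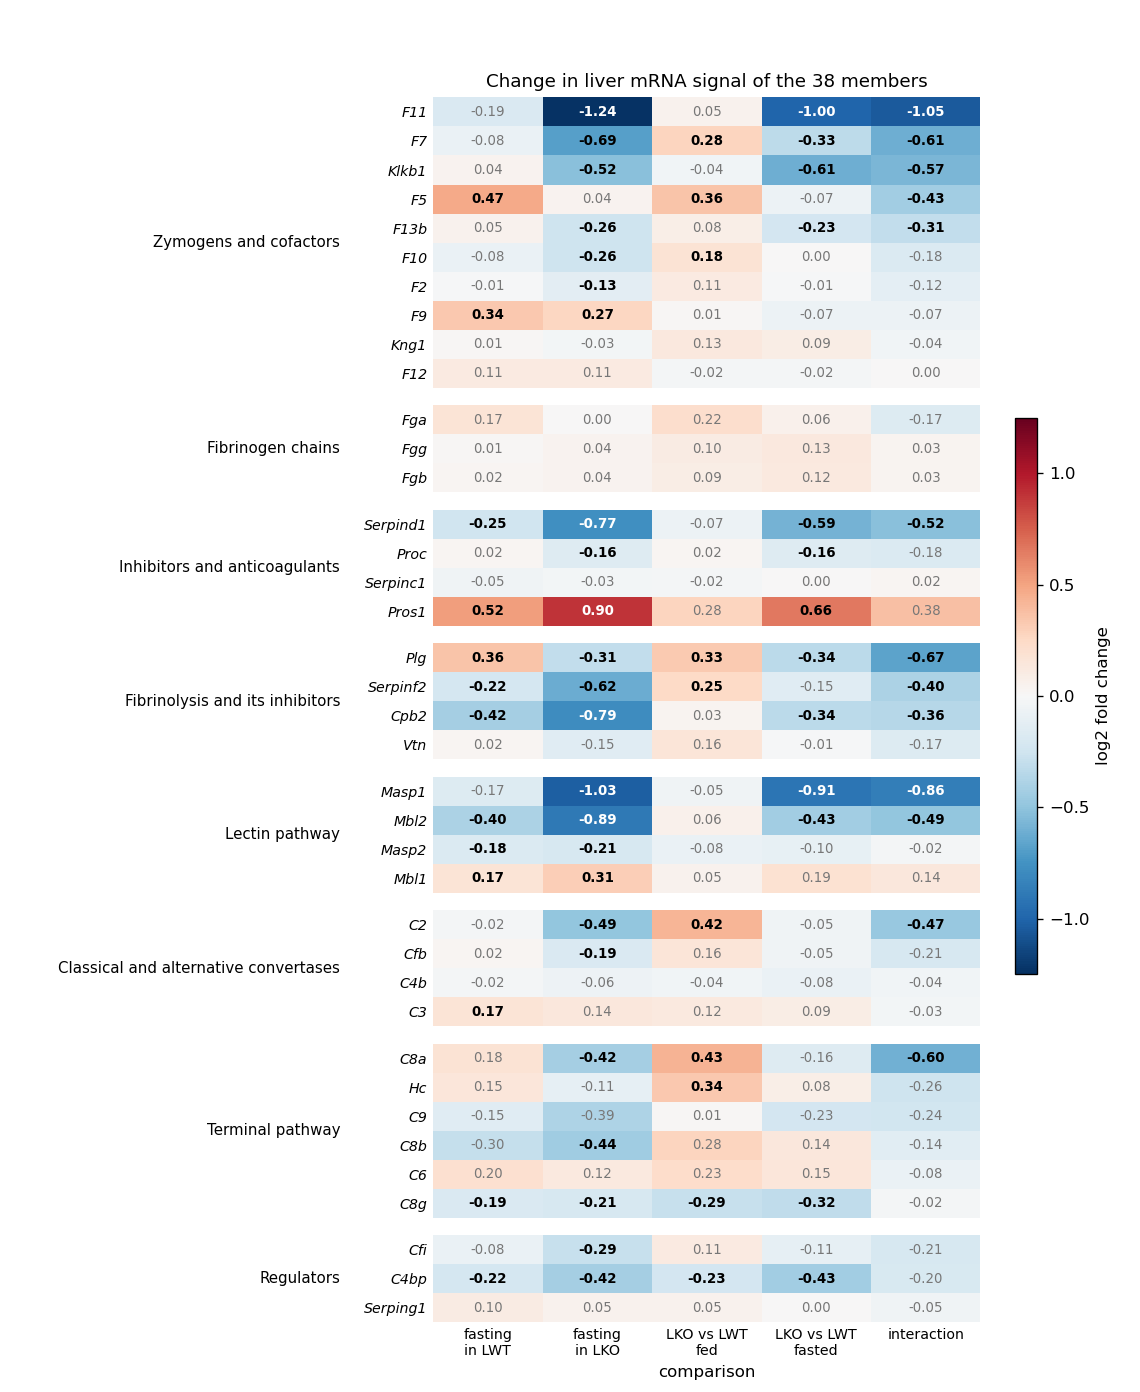
log2 fold change of each of the 38 members (rows, grouped by role) in the 5 comparisons (columns), with values that passed at an adjusted p of at most 0.05 in bold. In LKO fasting F11 shows -1.24 and Pros1 0.90, and Masp1 shows -1.03 with the probe drawn but -0.57 as the mean of its 5 probes, less than the -0.89 of Mbl2.

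Among the zymogens and cofactors F11, the zymogen of factor XI, changed most. Its log2 signal was 12.70 to 13.19 with a median of 13.01 in LWT_Fed, 12.59 to 13.04 with a median of 12.78 in LWT_Fasted, 12.86 to 13.39 with a median of 13.02 in LKO_Fed and 11.50 to 12.58 with a median of 11.83 in LKO_Fasted. The 6 LKO_Fasted arrays lay below the arrays of every other group. F11 fell 2.36-fold on fasting in LKO (log2 fold change -1.24, SE 0.128, adjusted p = 8.19e-08) and by 0.19 in LWT, where it did not pass (adjusted p = 0.214). In fasted mice it was 2.00-fold lower in LKO (adjusted p = 1.17e-05), in fed mice the log2 difference was 0.05 (adjusted p = 0.828), and the interaction was -1.05 (SE 0.173, adjusted p = 0.000837). Within the slides, which held 2 arrays of each group, the interaction was -1.02, -0.83 and -1.12.

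Klkb1 encodes plasma prekallikrein, a close relative of factor XI, and its probe lies on the same chromosome as that of F11, at mm9 chr8:46355052-46355111 beside chr8:46326753-46326812. Its medians were 14.27 in LWT_Fed (14.19 to 14.33), 14.27 in LWT_Fasted (14.07 to 14.51), 14.26 in LKO_Fed (14.06 to 14.33) and 13.69 in LKO_Fasted (13.42 to 13.99). Here too every LKO_Fasted array was below all arrays of the other groups. The log2 fold change was -0.52 on fasting in LKO (adjusted p = 0.000209) and 0.04 in LWT (adjusted p = 0.732), LKO was 1.52-fold lower in fasted mice (adjusted p = 0.000169), and the interaction was -0.57 (adjusted p = 0.0129).

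F7, the zymogen of factor VII, starts the extrinsic arm. Its medians were 12.35 in LWT_Fed (12.20 to 12.73), 12.26 in LWT_Fasted (12.04 to 12.38), 12.64 in LKO_Fed (12.48 to 12.78) and 11.91 in LKO_Fasted (11.84 to 12.37). Fed and fasted LKO arrays did not overlap, whereas fed and fasted LWT arrays did. F7 was higher in LKO in the fed state by 0.28 (adjusted p = 0.0179) and lower in the fasted state (log2 difference -0.33, adjusted p = 0.00793). It fell 1.61-fold on fasting in LKO (adjusted p = 1.12e-06), and the interaction was -0.61 (adjusted p = 0.00267). Within the slides the interaction of F7 was -0.07, -0.47 and -0.83. F10, the factor X gene that lies near F7 on chromosome 8 (probes at mm9 chr8:13055774-13055833 and chr8:13035287-13035346), moved less, with -0.26 on fasting in LKO (adjusted p = 0.00138) and an interaction of -0.18 that did not pass (adjusted p = 0.175).

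F5, the gene of the cofactor factor V, had another pattern. Its medians were 14.40 in LWT_Fed (14.22 to 14.56), 14.84 in LWT_Fasted (14.76 to 14.93), 14.69 in LKO_Fed (14.53 to 14.94) and 14.73 in LKO_Fasted (14.62 to 15.10). It rose by 0.47 on fasting in LWT (adjusted p = 1.19e-05), with no overlap of the arrays, and the change in LKO was 0.04 (adjusted p = 0.712). In the fed state LKO was 0.36 higher (adjusted p = 0.00166), and the interaction was -0.43 (adjusted p = 0.0144), with -0.06, -0.58 and -0.51 within the slides.

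The remaining zymogens and cofactors moved little. F9, the factor IX gene on the X chromosome, rose in both genotypes, by 0.34 in LWT (adjusted p = 5.39e-05) against 0.27 in LKO (adjusted p = 0.00174), with an interaction of -0.07 (adjusted p = 0.654). F13b, the carrier subunit of factor XIII, fell by 0.26 in LKO (adjusted p = 0.00193) and had an interaction of -0.31 (adjusted p = 0.0289), which passed in 20 of the 24 fits that left out 1 array but neither with no filter (adjusted p = 0.0713) nor with the replicate number as a block (adjusted p = 0.0553). F2, the prothrombin gene, fell by 0.13 in LKO (adjusted p = 0.0421). F12 and Kng1, which encode factor XII and kininogen, passed in none of the 5 comparisons, although both other probes of Kng1 gave a higher fed signal in LKO, by 0.25 and 0.22, and 1 of them a LKO fasting change of -0.23 (adjusted p = 0.00749).

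The fibrinogen chains, which form the fibrin of a clot, passed in no comparison. The largest of their log2 fold changes was 0.22, for Fga between genotypes in fed mice (SE 0.107, adjusted p = 0.168). Fgb medians were 18.33, 18.32, 18.40 and 18.46 and Fgg medians 18.00, 18.02, 18.10 and 18.15 in LWT_Fed, LWT_Fasted, LKO_Fed and LKO_Fasted. The standard errors of Fgb and Fgg were 0.0522 to 0.0801 on the log2 scale. In the list of acute phase genes, which share with fibrinogen a rise in inflammation, Hp was higher on fasting by 0.28 in LWT and 0.31 in LKO and Orm1 lower (log2 fold changes -0.58 and -0.52), and none of the 6 passed between genotypes.

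Among inhibitors and anticoagulants Serpind1 and Pros1 went opposite ways. Serpind1 encodes heparin cofactor II, an inhibitor of thrombin. Its medians were 15.52 in LWT_Fed (15.46 to 15.61), 15.27 in LWT_Fasted (15.13 to 15.47), 15.45 in LKO_Fed (15.40 to 15.56) and 14.70 in LKO_Fasted (14.54 to 15.11), and the LKO_Fasted arrays lay below all others. It fell on fasting by 0.25 in LWT (adjusted p = 0.00542) against 1.70-fold in LKO (log2 fold change -0.77, adjusted p = 3.83e-08), with an interaction of -0.52 (adjusted p = 0.00371). In fasted mice LKO was lower (log2 difference -0.59, adjusted p = 1.17e-05).

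Pros1 encodes protein S, the cofactor of activated protein C. Its medians were 13.42 in LWT_Fed (13.26 to 13.57), 13.94 in LWT_Fasted (13.68 to 14.65), 13.76 in LKO_Fed (13.54 to 13.85) and 14.61 in LKO_Fasted (14.42 to 15.17). Fasted arrays were above fed arrays in both genotypes. The rise was 0.52 in LWT (adjusted p = 0.000146) against 0.90 in LKO (adjusted p = 4.72e-07), or 1.87-fold, and LKO was 1.58-fold higher in fasted mice (adjusted p = 0.000132). The interaction of 0.38 did not pass (SE 0.142, adjusted p = 0.104), so a larger rise in LKO is not shown. A second probe of Pros1 gave 0.55 and 0.90 for the rises. The fed genotype difference was 0.28 with the first probe (adjusted p = 0.0584) and 0.29 with the second (adjusted p = 0.0441). Proc, the protein C gene, was lower in LKO_Fasted than in LKO_Fed (log2 difference -0.16, adjusted p = 0.0261) and than in LWT_Fasted (-0.16, adjusted p = 0.0384). Serpinc1, the antithrombin gene, had medians of 17.96 to 18.05 in the 4 groups and passed in no comparison.

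**Figure D3:**
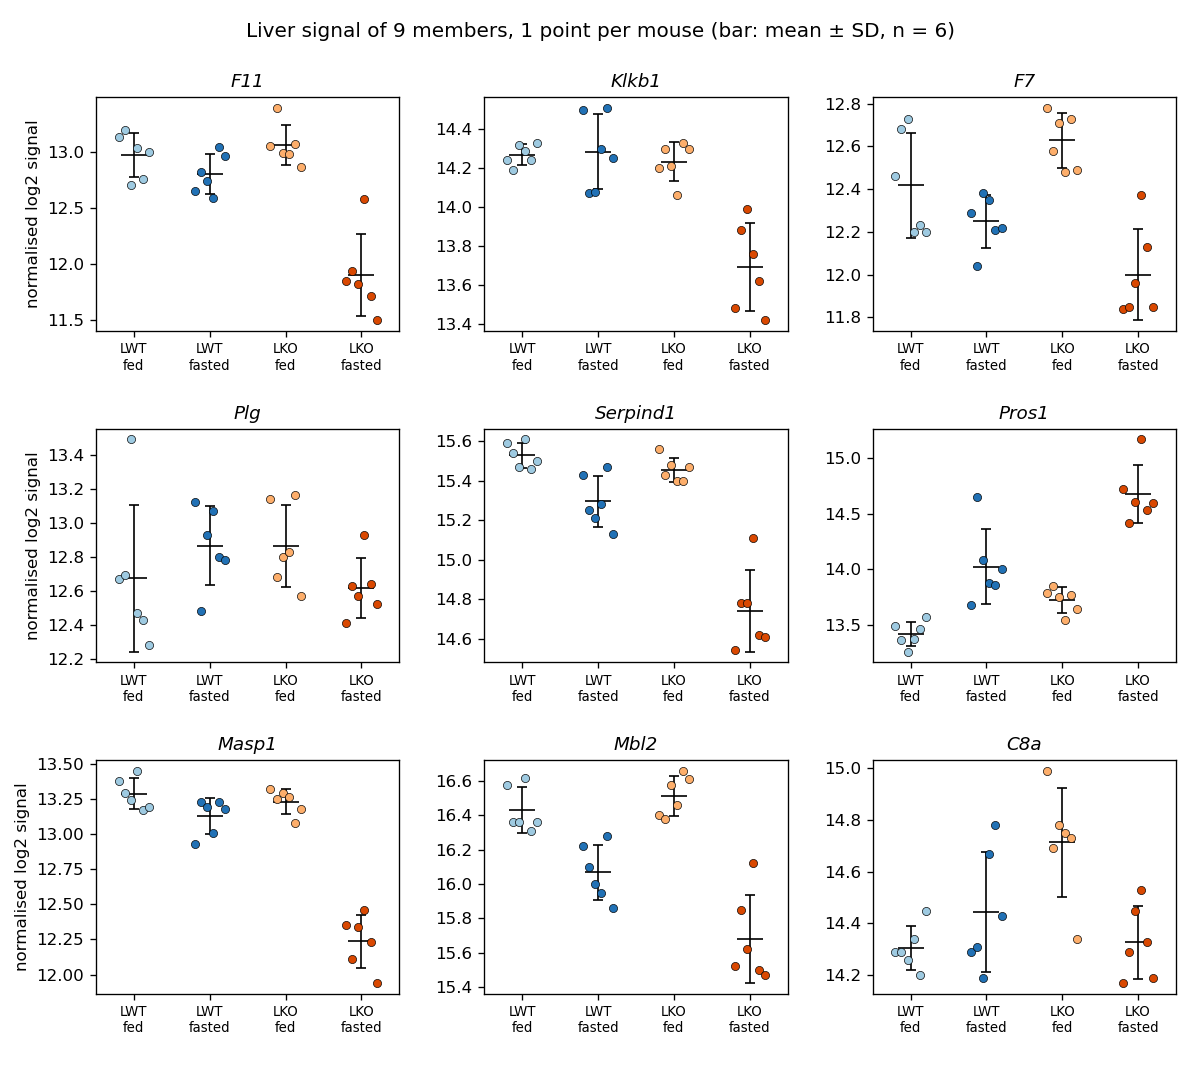
Normalised log2 signal (vertical axis, scaled for each gene) of 9 members in the 4 groups, 1 point per mouse, with bars for the mean and SD of 6 mice. LKO_Fasted arrays lie below all others for F11, Klkb1, Serpind1 and Masp1, whereas Pros1 is raised by fasting in both genotypes.

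Of the genes of fibrinolysis and its inhibitors, Cpb2 and Serpinf2, which both restrain clot lysis, fell on fasting in both genotypes. Cpb2 encodes the proenzyme of the carboxypeptidase TAFI, and its medians were 15.93 in LWT_Fed (15.73 to 16.10), 15.52 in LWT_Fasted (15.46 to 15.62), 15.96 in LKO_Fed (15.83 to 16.16) and 15.23 in LKO_Fasted (14.99 to 15.59). Fed and fasted arrays of Cpb2 did not overlap in either genotype. The change was -0.42 in LWT (adjusted p = 4.15e-05) against -0.79 in LKO (adjusted p = 3.39e-08), and the interaction was -0.36 (adjusted p = 0.0354), which passed in 15 of the 24 fits that left out 1 array. Serpinf2 encodes alpha2-antiplasmin, and its medians were 16.25 in LWT_Fed (15.96 to 16.40), 15.98 in LWT_Fasted (15.81 to 16.16), 16.47 in LKO_Fed (16.27 to 16.54) and 15.91 in LKO_Fasted (15.62 to 16). Its LKO arrays did not overlap between fed and fasted, and its LWT arrays did. It changed by -0.22 in LWT (adjusted p = 0.0199) against -0.62 in LKO (adjusted p = 1.97e-06), with an interaction of -0.40 (adjusted p = 0.0272), which passed in 22 of those 24 fits. With no filter the interactions of Cpb2 and Serpinf2 missed the threshold (adjusted p = 0.0769 and 0.0702), as they did without array weights (adjusted p = 0.0742 and 0.0847). Without LKO_Fasted replicates 1 and 2 together that of Cpb2 was -0.35 and also missed it (adjusted p = 0.0563).

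Plg, the plasminogen gene, changed in opposite directions in the model. It rose by 0.36 on fasting in LWT (adjusted p = 0.011) and fell by 0.31 in LKO (adjusted p = 0.0414), with an interaction of -0.67 (adjusted p = 0.0145). The arrays overlapped in all 4 pairs of groups, with medians of 12.57 in LWT_Fed (12.28 to 13.49), 12.86 in LWT_Fasted (12.48 to 13.12), 12.82 in LKO_Fed (12.57 to 13.16) and 12.60 in LKO_Fasted (12.41 to 12.93). The highest of these values, 13.49, was LWT_Fed replicate 3, the array of lowest weight. Without array weights the interaction was -0.44 (adjusted p = 0.25), within slides it was 0.48, -0.89 and -0.91, and a second probe of Plg gave -0.18 (adjusted p = 0.64), with a LWT fasting change of -0.24 (adjusted p = 0.147). The genotype differences of Plg were 0.33 fed and -0.34 fasted (adjusted p = 0.0482 and 0.0451), and with the second probe 0.23 and 0.06 (adjusted p = 0.264 and 0.832). Vtn, which encodes vitronectin, passed in no comparison.

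The lectin pathway held the largest fasting changes of the complement genes in LKO. Masp1, which encodes a protease of the lectin complexes, had medians of 13.26 in LWT_Fed (13.17 to 13.45), 13.18 in LWT_Fasted (12.93 to 13.23), 13.26 in LKO_Fed (13.08 to 13.32) and 12.28 in LKO_Fasted (11.94 to 12.46). The LKO_Fasted arrays lay below all others. Masp1 fell 2.04-fold on fasting in LKO (log2 fold change -1.03, SE 0.0847, adjusted p = 2.89e-09), changed by -0.17 in LWT (adjusted p = 0.0825), and was 1.88-fold lower in LKO among fasted mice (adjusted p = 2.57e-07). The interaction was -0.86 (adjusted p = 0.000134), with -0.93, -0.64 and -0.93 within the slides. As the mean of its 5 probes Masp1 changed less, by -0.57 on fasting in LKO (adjusted p = 2.2e-06) and by -0.38 between fasted genotypes (adjusted p = 0.000733).

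The probes of Masp1 did not all move alike. The value above is that of a cDNA probe, D16492, at mm9 chr16:23449609-23449668. On fasting in LKO the probes for AK032944 and NM_008555 gave -0.90 and -0.59, whereas those for XM_006521828 and XM_006521829, which are predicted transcripts, gave -0.26 and -0.07 and did not pass. The probe for NM_008555 gave an interaction of -0.52 (adjusted p = 0.0156) and AK032944 one of -0.63 (adjusted p = 0.0782), whereas XM_006521828 and XM_006521829 gave -0.09 and 0.03 (adjusted p = 0.778 and 0.924). The mean of all 5 probes had an interaction of -0.41 (adjusted p = 0.0138). Transcripts of Masp1 encode several products that share part of their exons, and which product each probe reports was not examined.

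Mbl2, a mannose-binding lectin, fell in both genotypes. Its medians were 16.36 in LWT_Fed (16.31 to 16.62), 16.05 in LWT_Fasted (15.86 to 16.28), 16.52 in LKO_Fed (16.38 to 16.66) and 15.57 in LKO_Fasted (15.47 to 16.12), with no overlap of fed and fasted arrays in either genotype. The change was -0.40 in LWT (adjusted p = 0.00143) against -0.89 in LKO (adjusted p = 4.22e-07). The interaction of -0.49 was near the threshold (adjusted p = 0.0358), passed in 13 of the 24 fits that left out 1 array, and missed it with no filter (adjusted p = 0.0842) or no array weights (adjusted p = 0.0583). Within the slides it was -0.15, -0.61 and -0.65. Mbl1, the second mannose-binding lectin of the mouse, rose instead, by 0.17 in LWT (adjusted p = 0.0318) against 0.31 in LKO (adjusted p = 0.00097). Masp2 fell in both (-0.18 and -0.21, adjusted p = 0.0149 and 0.0132), with an interaction of -0.02 (adjusted p = 0.905), but neither of its other probes passed in a fasting comparison (-0.06 to -0.17).

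Of the convertase genes C2 was the 1 with an interaction. C2 supplies the protease of the classical and lectin C3 convertase, and its medians were 14.30 in LWT_Fed (14.14 to 14.58), 14.32 in LWT_Fasted (14.20 to 14.52), 14.76 in LKO_Fed (14.54 to 14.93) and 14.21 in LKO_Fasted (14.11 to 14.68). LKO_Fed was the high group. C2 was 0.42 higher in LKO in the fed state (adjusted p = 0.00179), fell by 0.49 on fasting in LKO (adjusted p = 0.000161), and had an interaction of -0.47 (adjusted p = 0.0236) that missed the threshold with the scaled processed signal (-0.42, adjusted p = 0.0617), with no filter (adjusted p = 0.0576) and without array weights (adjusted p = 0.0559). Cfb, the factor B gene next to it on chromosome 17, fell by 0.19 in LKO (adjusted p = 0.0271) with an interaction of -0.21 (adjusted p = 0.171). C3, the central component, rose by 0.17 in LWT (adjusted p = 0.0161). A second C3 probe gave 0.32 for that change (adjusted p = 0.000298) and a fed genotype difference of 0.30 (adjusted p = 0.0027), which was 0.12 and did not pass with the first (adjusted p = 0.135). C4b passed in no comparison.

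In the terminal pathway C8a, which encodes the alpha chain of C8, had medians of 14.29 in LWT_Fed (14.20 to 14.45), 14.37 in LWT_Fasted (14.19 to 14.78), 14.74 in LKO_Fed (14.34 to 14.99) and 14.31 in LKO_Fasted (14.17 to 14.53). As for C2, LKO_Fed was the high group. The fed genotype difference was 0.43 (adjusted p = 0.00371), the fasting change in LKO -0.42 (adjusted p = 0.00237), and the interaction -0.60 (adjusted p = 0.0118). A second C8a probe gave -0.63 for the interaction (adjusted p = 0.0147). C8b, whose probe lies near that of C8a on chromosome 4, fell by 0.44 in LKO (adjusted p = 0.0446) and had an interaction of -0.14 (adjusted p = 0.766). Its second probe was 0.44 higher in fed LKO mice (adjusted p = 0.0447), against 0.28 (adjusted p = 0.255) with the first. C8g, the gamma chain gene, was lower in LKO in both states (log2 differences -0.29 fed and -0.32 fasted, adjusted p = 0.00366 and 0.00224), and lower after fasting in both genotypes (-0.19 and -0.21).

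Hc, the mouse C5 gene, was 0.34 higher in LKO in the fed state (adjusted p = 0.0105). C6 and C9 passed in no comparison, and the LKO fasting change of C9 was -0.39 (SE 0.158, adjusted p = 0.0538).

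Among the regulators C4bp, the gene of the C4b-binding protein, was, like C8g, lower in LKO in both states. The log2 differences between genotypes were -0.23 fed and -0.43 fasted (adjusted p = 0.0226 and 0.000201). The C4bp signal fell on fasting in both genotypes (-0.22 in LWT and -0.42 in LKO, adjusted p = 0.00913 and 6.41e-05). Its interaction of -0.20 did not pass (adjusted p = 0.221). A second C4bp probe gave genotype differences of -0.14 and -0.16 that did not pass. Cfi, the factor I gene, fell by 0.29 in LKO (adjusted p = 0.0121). Serping1, which encodes the C1 inhibitor that acts on both cascades, passed in no comparison and had medians of 16.54 to 16.64.

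**Figure D4:**
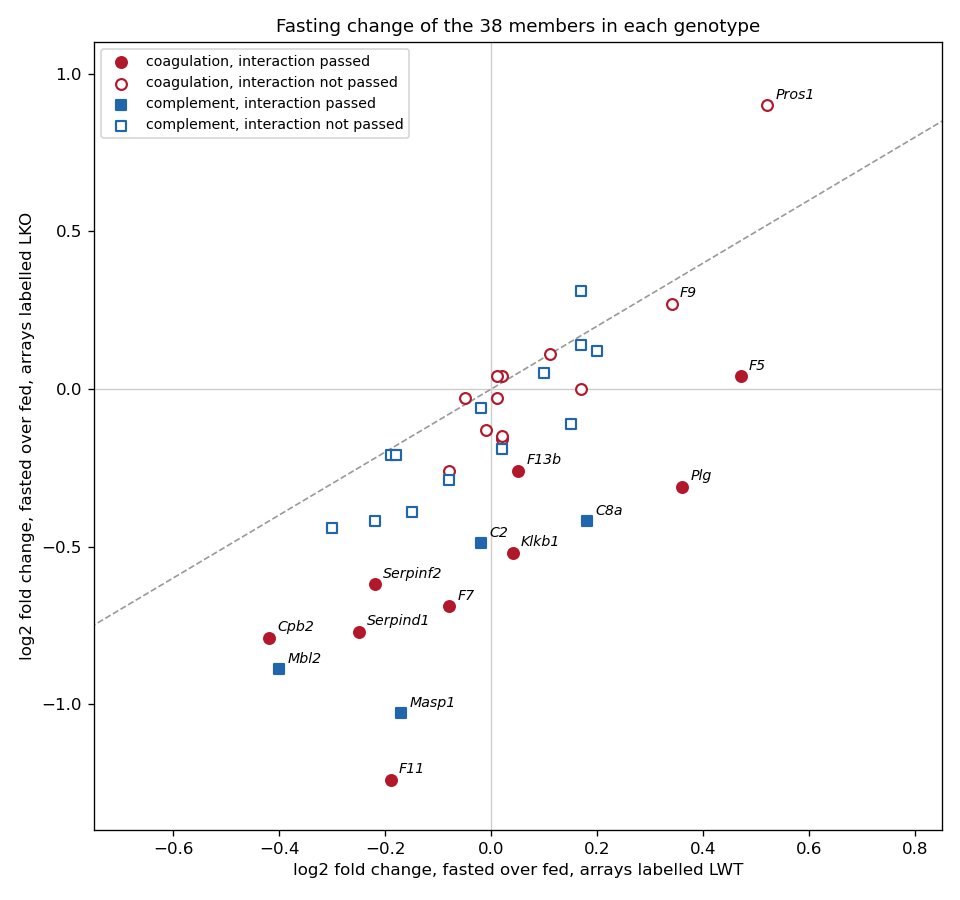
Fasting change (log2 fold change, fasted over fed) of the 38 members in LWT (horizontal axis) and LKO (vertical axis), with filled symbols for genes whose interaction passed and a dashed line where both changes are equal. All 13 filled symbols lie below the line, and Pros1 lies above it without passing.

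Coagulation and complement can be set side by side only as a description. The interaction passed for 9 of 21 coagulation genes and 4 of 17 complement genes, all negative, against 3.87% of all genes negative and 4.12% positive. Coagulation held the only member over 1.5-fold higher in any comparison, Pros1. Of all 38 members 27 passed in at least 1 pairwise comparison, against 64.3% of all genes, and 11 passed in none of the 5 comparisons, against 35.7%.

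The other genes of both pathways, which were not members, were read from lists of the same kind. Of 30 other coagulation genes 26 were tested. On fasting 2 were higher and 14 lower in LWT and 3 higher and 12 lower in LKO, against 19.9% of all genes higher and 21.7% lower in LWT and 19.7% and 21.9% in LKO. The interaction was positive for 1 (Tfpi2, 0.61) and negative for 3, against 4.12% and 3.87% of all genes. Ggcx, the carboxylase that the vitamin K dependent factors need, fell by 0.54 in LWT and 0.85 in LKO on the log2 scale. Proz, the protein Z gene, and Hgfac, the activator of hepatocyte growth factor, had interactions of -0.49 and -0.38 (adjusted p = 0.00651 and 0.045).

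Of 33 other complement genes 30 were tested, and on fasting 3 were higher and 9 lower in LWT and 2 higher and 7 lower in LKO, beside the same shares of all genes. The interaction was negative for 5 and positive for none, against 3.87% and 4.12% of all genes. Among them were C1s1 (-0.43, adjusted p = 0.00635), C1rb (-0.42, adjusted p = 0.00925), C1s2 (-0.37, adjusted p = 0.00308) and C1ra (-0.30, adjusted p = 0.0336), which encode the proteases of C1. Mouse C1ra and C1rb, and C1s1 and C1s2, are near-identical copies whose probes may share signal. Cfd, the factor D gene, was lower in LKO in both states (log2 differences -2.76 fed and -3 fasted, adjusted p = 0.0123 and 0.008). Its standard errors were large, 0.726 and 0.771. C5ar2 rose on fasting by 1.20 in LWT and 1.29 in LKO.

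The labelled tissue was checked with marker lists. The 5 hepatocyte markers had a log2 of their summed signal of 19.97 to 20.10 in LWT_Fed, 19.97 to 20.14 in LWT_Fasted, 20.01 to 20.04 in LKO_Fed and 19.87 to 20.01 in LKO_Fasted, so that the ranges of the LKO groups meet at the printed digit. Alb passed in no comparison, while Ttr fell on fasting (-0.17 in LWT and -0.37 in LKO) and was lower in LKO both fed (-0.21, adjusted p = 0.00716) and fasted (-0.41, adjusted p = 2.03e-05). Apoa1 was higher in fed LKO mice (0.28, adjusted p = 0.0296). The summed log2 signal of 6 Kupffer cell and macrophage markers, a cell type that makes C1q, was 14.68 to 15.16 in LWT_Fed, 13.99 to 15.17 in LWT_Fasted, 14.36 to 15.10 in LKO_Fed and 13.93 to 16.11 in LKO_Fasted, and 1 of the 6 (Cd68) passed, in LWT fasting. That of 4 platelet markers lay between 8.70 and 9.53 and that of 6 endothelial markers between 13.69 and 14.86, while Itga2b and Pecam1 rose on fasting in LKO (0.30 and 0.37) and Lyve1 was lower in fed LKO mice (-0.88, adjusted p = 0.0405). Of 5 stellate cell markers (14.61 to 15.38) Lrat fell on fasting in both genotypes (-0.90 and -0.96), Dcn rose in both (0.25 and 0.25) and Pdgfrb fell in LKO (-0.29). All 4 cholangiocyte markers (8.33 to 9.29) passed somewhere. Krt19 fell on fasting (-0.67 and -0.59) and was lower in fed LKO mice (-0.57), Epcam was lower in LKO in both states (-0.41 and -0.42), Krt7 fell in LWT (-0.27) and Sox9 rose in both genotypes (0.55 and 0.58). Of 3 erythroid markers (16.31 to 18.68) Alas2 fell on fasting (-0.46 and -0.50) and was lower in LKO in both states (-0.80 and -0.83). Of the 4 neutrophil and lymphocyte markers tested (10.51 to 11.67) Ly6g fell on fasting in LKO (-0.39) and was lower there in fasted mice (-0.31), and Cd3e fell in LKO (-0.26). The summed signals of the platelet, endothelial, stellate cell, cholangiocyte, erythroid and leukocyte lists overlapped between all groups. No marker of the 9 lists passed in the interaction. Fewer cells of a type and less RNA per cell cannot be told apart in whole liver, and the part of other cell types in the members' changes was not tested.

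Promoter windows from RefSeq (GRCm38.p6) are shown for F11 and Klkb1, the neighbouring genes that fell together in fasted LKO mice, for Fgb, a fibrinogen chain that passed in no comparison, for Mbl2, and for Pros1, which rose. Each runs from 250 bases before to 50 bases after the annotated start and is written 5′ to 3′ on the strand of the gene. Capitals mark every match on either strand to 6 motifs of liver or hormone-responsive factors. These were the HNF1 short site GTTAAT, the HNF4 site CAAAGTCCA, the C/EBP site TTGCNNAA, the forkhead site GTAAACA, the core TGACGT of the cyclic AMP response element and the STAT site TTCNNNGAA.
F11 (chr8:45261982-45262281, strand -): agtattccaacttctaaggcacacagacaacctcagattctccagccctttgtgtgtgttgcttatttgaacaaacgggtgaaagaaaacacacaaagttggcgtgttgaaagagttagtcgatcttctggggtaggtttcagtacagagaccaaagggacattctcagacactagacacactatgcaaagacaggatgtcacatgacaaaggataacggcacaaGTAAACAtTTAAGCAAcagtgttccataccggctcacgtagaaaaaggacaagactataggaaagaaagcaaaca
Klkb1 (chr8:45294786-45295085, strand -): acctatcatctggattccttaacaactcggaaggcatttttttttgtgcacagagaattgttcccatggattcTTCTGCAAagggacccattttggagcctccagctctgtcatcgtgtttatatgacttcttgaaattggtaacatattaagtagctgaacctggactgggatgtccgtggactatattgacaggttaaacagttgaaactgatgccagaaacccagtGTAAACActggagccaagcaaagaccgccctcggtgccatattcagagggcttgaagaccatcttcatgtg
Fgb (chr3:83049814-83050113, strand -): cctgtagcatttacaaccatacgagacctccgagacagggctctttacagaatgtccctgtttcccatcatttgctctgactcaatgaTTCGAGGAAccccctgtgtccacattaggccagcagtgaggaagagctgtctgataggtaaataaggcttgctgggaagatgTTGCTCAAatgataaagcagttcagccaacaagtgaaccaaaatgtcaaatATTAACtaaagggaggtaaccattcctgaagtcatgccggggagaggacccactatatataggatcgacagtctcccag
Mbl2 (chr19:30232678-30232977, strand +): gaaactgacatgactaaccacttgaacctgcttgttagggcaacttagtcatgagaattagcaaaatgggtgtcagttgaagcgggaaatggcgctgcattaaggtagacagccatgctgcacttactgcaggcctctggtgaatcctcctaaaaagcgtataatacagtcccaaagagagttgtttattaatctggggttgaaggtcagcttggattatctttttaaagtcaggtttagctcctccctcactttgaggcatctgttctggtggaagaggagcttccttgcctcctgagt
Pros1 (chr16:62854057-62854356, strand +): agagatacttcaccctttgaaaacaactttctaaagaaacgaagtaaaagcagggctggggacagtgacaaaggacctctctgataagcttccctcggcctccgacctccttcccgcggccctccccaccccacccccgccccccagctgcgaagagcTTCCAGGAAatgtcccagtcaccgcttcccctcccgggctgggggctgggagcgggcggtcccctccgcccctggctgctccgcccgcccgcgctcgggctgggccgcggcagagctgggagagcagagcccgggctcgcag

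Windows were found for 29 of the 38 members, 30 windows in all, and C2, C4b, Cfb, Cfi, Kng1, Masp1, Plg, Proc and Serping1 had no entry. The forkhead letters were in the windows of 2 members, F11 and Klkb1, at 25 and 21 bases before the start. That is 6.67% of the member windows, against 3.65% of all 32851 windows. In F11 a C/EBP match follows it with 1 base between, and in Klkb1 a C/EBP match lies 177 bases before the start. C/EBP letters were in 9 of the 30 windows (30.0%, against 10.8% of all), the HNF1 short site in 9 (30.0% against 7.10%), the STAT letters in 7 (23.3% against 8.30%), TGACGT in 1 (3.33% against 7.51%, in Cpb2) and the HNF4 letters in none (0.475% of all). Fgb held the HNF1, C/EBP and STAT letters at 29, 80 and 162 bases before the start, Pros1 the STAT letters alone and Mbl2 none of the 6. Of the 10 genes with a passed interaction and a window, 3 held C/EBP letters, 2 the HNF1 short site and 2 the forkhead letters. TGACGT and the STAT letters were each in 1, and the HNF4 letters in none. A match is a run of letters and no measured binding site.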

How the data were processed

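The authors hybridised liver RNA of 24 mice to 1-colour Agilent mouse arrays, which were read with Feature Extraction 10.10.1.1. The deposited intensity values used here are the median spot signal, its mean and background for alternatives, and the processed signal. The authors' matrix of log2 values, made with limma after a filter and quantile normalization, served as an alternative. The paper also names a batch correction for the washing bath of the arrays. The labels do not give the bath, so a slide term took its place here, also in the fit to the authors' values. Probe positions are those of mm9.

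Spots marked as outliers were left out, spots of a probe averaged, and a probe was kept when 5 or more of the 6 arrays of some group showed it well above background, which left 32197 probes of 21365 genes. The log2 median signals were quantile normalized and fitted in limma 3.58.1 (R 4.3.3) with group means, a term for the 3 slides (2 arrays of each group on each), array weights and eBayes. p-values are two-sided and adjusted by Benjamini and Hochberg over all kept probes, and a gene passed at an adjusted p of at most 0.05. Values are normalised log2 signals, fold changes come from the weighted fit, and levels of different probes are not compared. Mice are separate animals, and their number limits the precision.

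The members, lists and tests were chosen with earlier results of these data known. Members named with full values are the 6 largest at most per list and comparison that passed with over 1.5-fold, or that passed in the interaction. Of the other listed genes, those not tested were below the filter or had no probe, and some that were tested are not reported here by name. The accession of 37 of the 38 members' probes matched the same symbol in RefSeq (GRCm38.p6). Alternatives were other signals, filters, weights, slide or replicate terms, the mean of a gene's probes, the compared groups alone, and each array left out.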

Additional observations from a re-analysis of the deposited data

Results flagged for a closer look

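The interaction of genotype and fasting passed for 13 of the 38 members, all negative, against 3.87% of all genes negative and 4.12% positive: the fasting change was lower in LKO than in LWT. It was -1.05 for F11, -0.86 for Masp1, -0.67 for Plg, -0.61 for F7, -0.60 for C8a, -0.57 for Klkb1, -0.52 for Serpind1, -0.49 for Mbl2, -0.47 for C2, -0.43 for F5, -0.40 for Serpinf2, -0.36 for Cpb2 and -0.31 for F13b. Their adjusted p lay between 0.000134 and 0.0358 in limma. The calls of Plg, Mbl2, C2, Serpinf2, Cpb2 and F13b were each lost under 2 or 3 of the alternatives other than leaving out 1 array. These genes reach the same sign from different sides, since F5 rose in LWT alone at the threshold, C2 and C8a were highest in LKO_Fed, and F11, Klkb1 and Masp1 were low in LKO_Fasted.

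A single array far from the other 5 of its group was found in 7 of 152 groups of values (38 members in 4 groups), and chance gives about 1 in 20. These were F12 at 15.80 in LWT_Fed replicate 3 (next value 15.61) and at 15.18 in LKO_Fed replicate 6 (15.55), F13b at 13.28 in LKO_Fed replicate 4 (13.54), F2 at 17.82 in LKO_Fasted replicate 4 (17.67), F9 at 13.09 in LWT_Fasted replicate 6 (13.29), Fga at 14.29 in LWT_Fasted replicate 2 (14.69) and Plg at 13.49 in LWT_Fed replicate 3 (12.69).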

How the results depend on the processing

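The 23 log2 fold changes named by size and the 3 further interactions that passed were recomputed under each alternative, which gave 715 values in all. None changed sign, 20 passed under every alternative, and the exceptions were the interactions of Plg, Mbl2, C2, Serpinf2, Cpb2 and F13b. All of these 6 missed the threshold with no filter, and all but F13b with no array weights. Masp1 kept its sign and call with the mean of all its probes, at -0.57 in LKO fasting, -0.38 between fasted genotypes and -0.41 in the interaction. With the replicate number as a block, 7, 11, 5, 7 and 8 coagulation members passed in LWT fasting, LKO fasting, fed genotype, fasted genotype and interaction, and the interactions of Mbl2 and F13b missed the threshold (-0.47 and -0.31, adjusted p = 0.0624 and 0.0553). Same-numbered arrays had a median r of -0.0311 over 36 pairs (-0.179 to 0.275, with 4 over 0.1), so the number was not treated as a pairing. Whether mice shared a litter or cage was not tested. Requiring over 1.5-fold left 0, 6, 0, 4 and 3 coagulation members and 0, 2, 0, 1 and 2 complement members in the same order. The fed genotype count of 5 coagulation members became 8 with the processed signal scaled to the 75th percentile, with normexp background on the mean signal or with the authors' values, and 1 with no filter or with no array weights. The complement count in LWT fasting was 3 with that scaled processed signal. With no filter the interaction counts were 5 for coagulation and 2 for complement, and with no array weights that of complement was 2. The cause of these shifts was not tested. Leaving out 1 array at a time gave 5 to 7, 10 to 14, 1 to 6, 7 to 9 and 6 to 10 coagulation members, and 3 to 6, 9 to 12, 3 to 5, 4 to 5 and 2 to 4 complement members. With the scaled processed signal the list medians for coagulation were 0.05 in LWT fasting, 0.17 between fed genotypes and -0.12 between fasted genotypes, and those for complement were 0.05 in LWT fasting, against -0.02, and 0.10 between fed genotypes. The interaction of Plg was -0.43 with the mean of its probes (adjusted p = 0.0553). All 38 members were well above background on every array.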
